A study of Mus musculus with 416 samples.

Results

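The genes described here are the replication-dependent histone genes of 3 windows of the mouse genome (GRCm38). The main cluster lies on chromosome 13 and comprises a block from 21.7 to 22.1 Mb, called block A, and a block from 23.5 to 23.8 Mb, called block B. The smaller cluster lies on chromosome 3 from 96.2 to 96.35 Mb. The windows were chosen by position, and they held 17 of the 49264 bins of 50 kb, with 8 bins in block A, 6 in block B and 3 in the chromosome 3 cluster. They held 62 histone genes, of which H1f1, H1f2, H1f3, H1f4, H1f5 and H2ac23 are followed individually. Another 108 bins within 1 Mb of the windows served as flanks.

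Replication states came from individual blastomeres of embryos of the genotype (C57BL/6J xCBA) x DBA/2J. Zygotes were injected with siRif1, an siRNA that targets Rif1, or with the control siRNA siCont, each at 20 µM and 17 to 18 hours after hCG, and were grown in KSOM to the 4-cell, 8-cell or morula stage. All embryos were thus injected, and an uninjected group was not analysed here. The tables held 49 siCont and 51 siRif1 cells of the 4-cell stage, 60 and 50 of the 8-cell stage, and 44 and 45 of the morula stage. The labels tie no cell to an embryo, so each group counts as 1 sample, no difference was tested, and the 95% Clopper-Pearson intervals given with shares of cells cover counting error only. The data hold no measure of Rif1 RNA or protein, and the extent of the knockdown was not analysed here.

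Replication-dependent histone genes supply the histones that package new DNA, and they are transcribed mainly in S phase. They lie in dense clusters and typically carry no introns. Their mRNAs typically end in a stem-loop bound by SLBP in place of a poly(A) tail. Clustered genes recruit NPAT and processing factors to nuclear sites called histone locus bodies. H1 genes encode linker histones, which bind DNA where it enters and leaves the nucleosome, whereas H2A, H2B, H3 and H4 genes encode the core of the nucleosome. RIF1 binds chromatin, recruits protein phosphatase 1 and is known as a regulator of the order in which domains replicate.

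The promoters of the 6 individually followed genes are shown to give the promoter elements present at each gene, H1 genes and the H2A gene side by side. Each line gives the 130 bases upstream of the annotated start, 5′ to 3′ on the strand of the gene, from RefSeq (GRCm38.p6). Capitals mark the H1 box AAACACA, the CCAAT box on either strand (CCAAT or ATTGG) and the TATA box TATAAA.
H1f1 (chr13:23763538-23763667, plus strand): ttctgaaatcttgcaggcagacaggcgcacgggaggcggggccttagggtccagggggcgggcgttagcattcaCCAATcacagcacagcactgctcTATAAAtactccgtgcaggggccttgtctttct
H1f2 (chr13:23738677-23738806, plus strand): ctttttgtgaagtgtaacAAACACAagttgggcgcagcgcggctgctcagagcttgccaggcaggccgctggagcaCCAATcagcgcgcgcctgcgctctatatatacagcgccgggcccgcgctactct
H1f3 (chr13:23554902-23555031, plus strand): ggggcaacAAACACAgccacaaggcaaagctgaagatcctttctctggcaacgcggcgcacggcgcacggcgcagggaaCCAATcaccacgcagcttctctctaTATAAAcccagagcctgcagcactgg
H1f4 (chr13:23622559-23622688, minus strand): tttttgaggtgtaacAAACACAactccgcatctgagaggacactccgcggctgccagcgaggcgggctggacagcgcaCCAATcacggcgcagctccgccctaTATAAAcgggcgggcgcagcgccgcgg
H1f5 (chr13:21780626-21780755, minus strand): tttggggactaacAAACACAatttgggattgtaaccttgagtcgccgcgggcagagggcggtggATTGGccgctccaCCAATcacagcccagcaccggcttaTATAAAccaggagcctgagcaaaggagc
H2ac23 (chr13:21810237-21810366, plus strand): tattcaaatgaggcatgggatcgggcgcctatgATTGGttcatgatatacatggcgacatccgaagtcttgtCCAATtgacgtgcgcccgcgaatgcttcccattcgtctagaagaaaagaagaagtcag

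The H1 box stood in the promoters of H1f2, H1f3, H1f4 and H1f5 between 106 and 122 bases upstream of the start. H1f1 lacked these letters in the window. Each H1 promoter carried a CCAAT box close to 50 bases upstream, and H2ac23 carried one on each strand. Over the 250 bases upstream, with both strands searched, 5 of 6 H1 promoters held the H1 box, against 6.246% of all 32851 promoters in the table. CCAAT was found in 82.76% of 58 promoters of the histone genes and in 33.85% of all promoters, and TATAAA in 44.83% and 12.37%. The octamer ATTTGCAT was found in 5 of 16 H2A and 6 of 15 H2B promoters and in none of the 6 H1, 10 H3 and 11 H4 promoters, against 1.601% of all promoters. Matches are descriptions of letters and not evidence of binding. RefSeq promoters matched 57 of the 62 genes.

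The clusters are so dense that many genes shared a measurement. The 62 genes comprised 6 H1, 16 H2A, 16 H2B, 12 H3 and 12 H4 genes and fell into only 12 bins. The gene H4bc24 was counted as an H2B gene from its older symbol. Divergent pairs with starts within 500 bases of each other numbered 9, of which 8 joined an H2A gene to an H2B gene by symbol, and both genes of each of the 9 pairs lay in the same bin. H2ac23, an H2A gene, starts 168 bases from H2bc23 on the opposite strand. The states were also smooth, because the shortest run of 1 state inside a chromosome was 5 bins (250 kb) in every group. Neighbouring genes of a block are therefore not separate measurements, and the chromosome 3 window of 0.15 Mb was shorter than the shortest run.

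The replicated share of a bin is the percent of measured cells in which it was in the replicated state. Every cell had a state in every one of the 17 bins. To allow for cells of different groups having progressed differently through S phase, shares were centred by subtracting the mean over all 46015 used bins of the group. The median siCont cell had replicated 42.8, 48.3 and 47.5% of its bins at the 3 stages in order, and the median siRif1 cell 51.1, 43.2 and 46.8%. The difference between the centred shares of the 2 treatments at a stage, siRif1 minus siCont, is called the shift and is given in percentage points. A positive shift is read as earlier and a negative one as later replication in siRif1 cells relative to the genome, and 10 points was used as the size of a large shift.

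Between them, blocks A and B frame 1.4 Mb that contain vomeronasal receptor genes of the Vmn1r family, sensory receptors of the nasal organ that detects pheromones. Replication was late in this gap in every group. Its core from 22.4 to 23.05 Mb was mostly in the replicated state in 7 of 49 siCont and 9 of 51 siRif1 cells of the 4-cell stage, 6 of 60 and 5 of 50 of the 8-cell stage, and 5 of 44 and 8 of 45 of the morula stage. Both histone blocks lay on the slopes that lead into the gap. The 1 Mb on the outer side of block A had centred shares of 7.03 to 20.0 points over the 6 groups and that on its inner side −35.2 to −27.5. For block B the outer side gave 11.5 to 20.0 points and the inner side −28.6 to −23.3. The main histone cluster therefore spanned the transition from earlier to later replicating DNA on either side of a late domain, in all 6 groups.

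**Figure D1:**
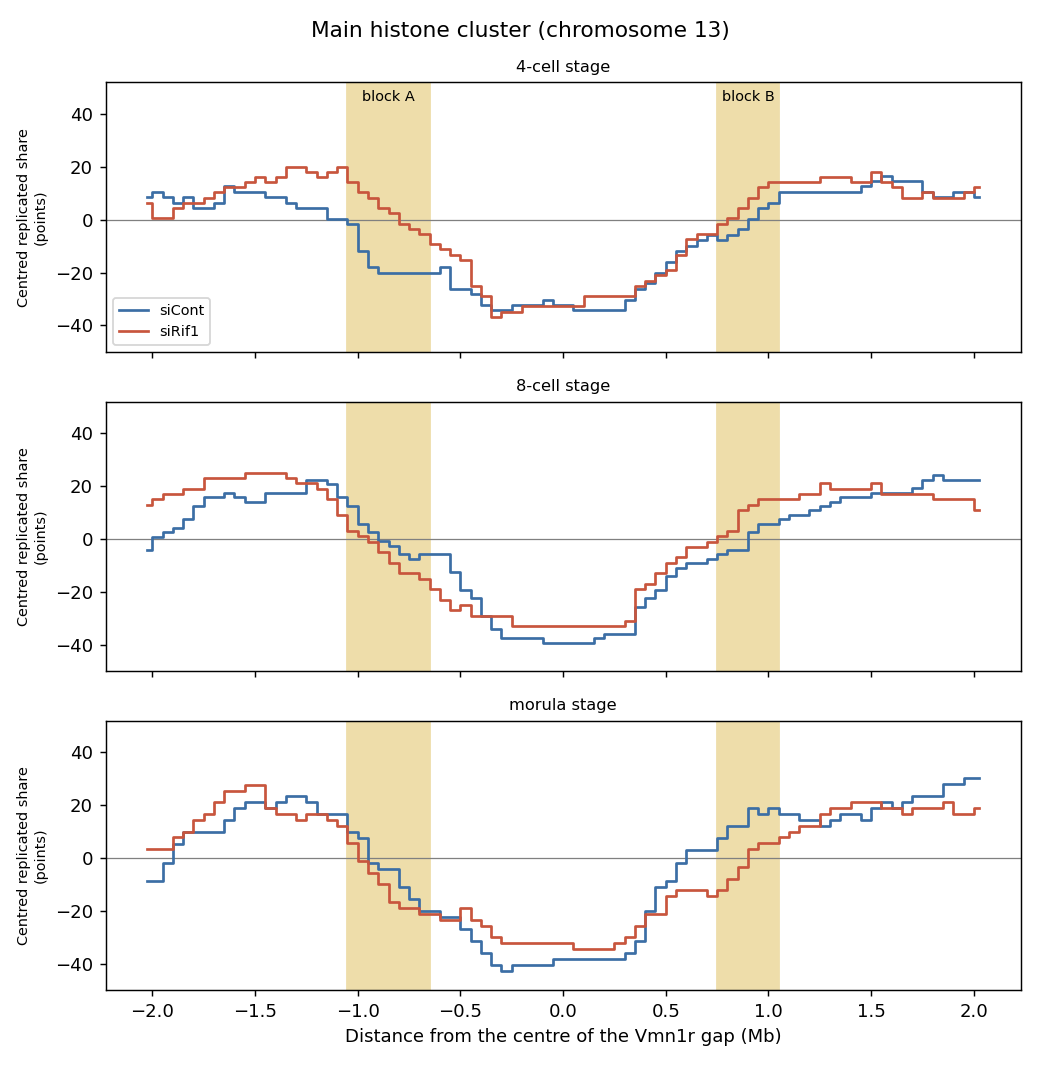
Centred replicated share in points (vertical axis) per 50-kb bin against distance from the centre of the Vmn1r gap in Mb, for siCont (blue) and siRif1 (red) cells at 3 stages; shading marks the histone blocks. At the 4-cell stage the siRif1 line lies above the siCont line over block A (block means 3.71 and −16.4), and at the morula stage it lies below it over block B (−1.46 and 14.2).

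Block A had its lowest replicated share of the 6 groups in siCont cells of the 4-cell stage, also after centring on all autosomes. Its mean replicated share there was 30.1%, against 54.2% in siRif1 cells of that stage. It was 48.96 and 36.5% in siCont and siRif1 cells of the 8-cell stage and 44.6 and 39.2% at the morula stage. After centring, block A stood at −16.4 points in siCont and 3.71 in siRif1 cells of the 4-cell stage, a shift of 20.1 points. All 8 bins were shifted by 14.7 to 26.3 points, whereas 13.8% of all used bins reached 10 points in this direction. The adjoining DNA shared the shift, which was 19.7 points in the bin just beyond the outer edge and 10.7 in the bin just inside the gap, so it was not particular to the histone block. Averaged over the whole 1 Mb on both sides the flanks moved less, and the shift of block A exceeded theirs by 16.1 points. Chromosome 13 as a whole also moved in this direction, and the shift was 13.4 points when shares were centred on chromosome 13 instead of on all autosomes. With cells of the 2 treatments paired by how much of the genome they had replicated (38 pairs), it was 29.9 points. The place of siCont 4-cell cells as the lowest group did not hold when centred on chromosome 13. There siCont morula cells stood 4.94 points above them, and the morula shift was −8.32 points, which put siRif1 morula cells lowest.

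The direction for block A was opposite at the other stages. Centred shares were −0.243 in siCont and −6.52 in siRif1 cells of the 8-cell stage, a shift of −6.28 points, and −4.79 and −10.8 at the morula stage, a shift of −6.02. None of its histone genes reached 10 points in either direction at these stages, where 42.9% and 41.1% of all genes had shifts of −10 or less. At the morula stage 1 of the 8 bins of block A, which held no histone gene, had a shift of −12.7 points. Counted by cells, more than 50% of block A was replicated in 13 of 49 siCont cells (26.5%, exact interval 14.9 to 41.1) and in 25 of 51 siRif1 cells (49.02%, exact interval 34.8 to 63.4) of the 4-cell stage, and these intervals overlap. The counts were 28 of 60 and 17 of 50 at the 8-cell stage and 20 of 44 and 15 of 45 at the morula stage.

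Block B, which holds 5 of the 6 H1 genes, varied in another way across the stages. Its mean replicated share was 45.6% in siCont and 56.9% in siRif1 cells of the 4-cell stage, 49.2 and 52.7% at the 8-cell stage, and 63.6 and 48.5% at the morula stage. Centred shares were highest in siCont morula cells at 14.2 points and lowest in siRif1 morula cells at −1.46. The morula shift was −15.7 points and reached −10 in 6 of 6 bins, against 24.9% of all used bins. The adjoining DNA shared the shift, which was −17.3 points in the bin just inside the gap and −8.72 in the bin just beyond the outer edge. The block's shift minus the mean of its 1 Mb flanks was −14.3 points, and that mean averages adjoining bins with bins of the gap that shifted the other way. The morula shift ranged from −18.0 to −14.4 points over the alternatives tried on the same scale.

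At the 4-cell and 8-cell stages block B was relatively earlier in siRif1 cells, by 7.37 and 9.68 points. The 4-cell value was sensitive to the setting, at 0.617 points when centred on chromosome 13 and 14.4 in the paired cells. At the 8-cell stage 2 of its 6 bins reached 10 points, where 22% of all used bins did. More than 50% of block B was in the replicated state in 21 of 49 siCont and 28 of 51 siRif1 cells of the 4-cell stage and in 27 of 60 and 27 of 50 of the 8-cell stage. At the morula stage the counts were 27 of 44 siCont cells (61.4%, exact interval 45.5 to 75.6) and 21 of 45 siRif1 cells (46.7%, exact interval 31.7 to 62.1), whose intervals overlap.

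The chromosome 3 cluster, which holds 10 of the 62 genes, replicated earlier than both blocks of chromosome 13 in all 6 groups. Its mean replicated share was 63.3 and 69.9% in siCont and siRif1 cells of the 4-cell stage, 69.4 and 56.7% at the 8-cell stage, and 80.3 and 67.4% at the morula stage. It lay inside a broad early domain that sloped at the 4-cell stage, where siCont cells placed the cluster 9.18 points above its right flank and at −9.18 points from its left flank. In siRif1 morula cells these distances were 0.0741 and −6.15 points. The shifts were 2.75, −6.60 and −13.5 points in stage order. The 4-cell value rose to 12.2 points in paired cells and was −0.314 among cells between 20 and 80% replicated, and the 8-cell value was −10.5 when centred on chromosome 3. Groups also differed in how widely shares were spread over the used bins, with SDs of 19.8 points in siCont and 14.7 in siRif1 cells of the 8-cell stage and 25.8 and 17.3 at the morula stage. On percentile ranks of bins within each group, which do not depend on this spread, the shift was −1.60 percentile points at the 8-cell stage and −7.64 at the morula stage. At the morula stage 2 of 3 bins reached −10 points, where 24.9% of all used bins did. The morula shift of the cluster minus that of its flanks was −3.17 points, and 2.07 points with flanks of 0.5 Mb, so most of the difference was shared with the surrounding DNA.

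**Figure D2:**
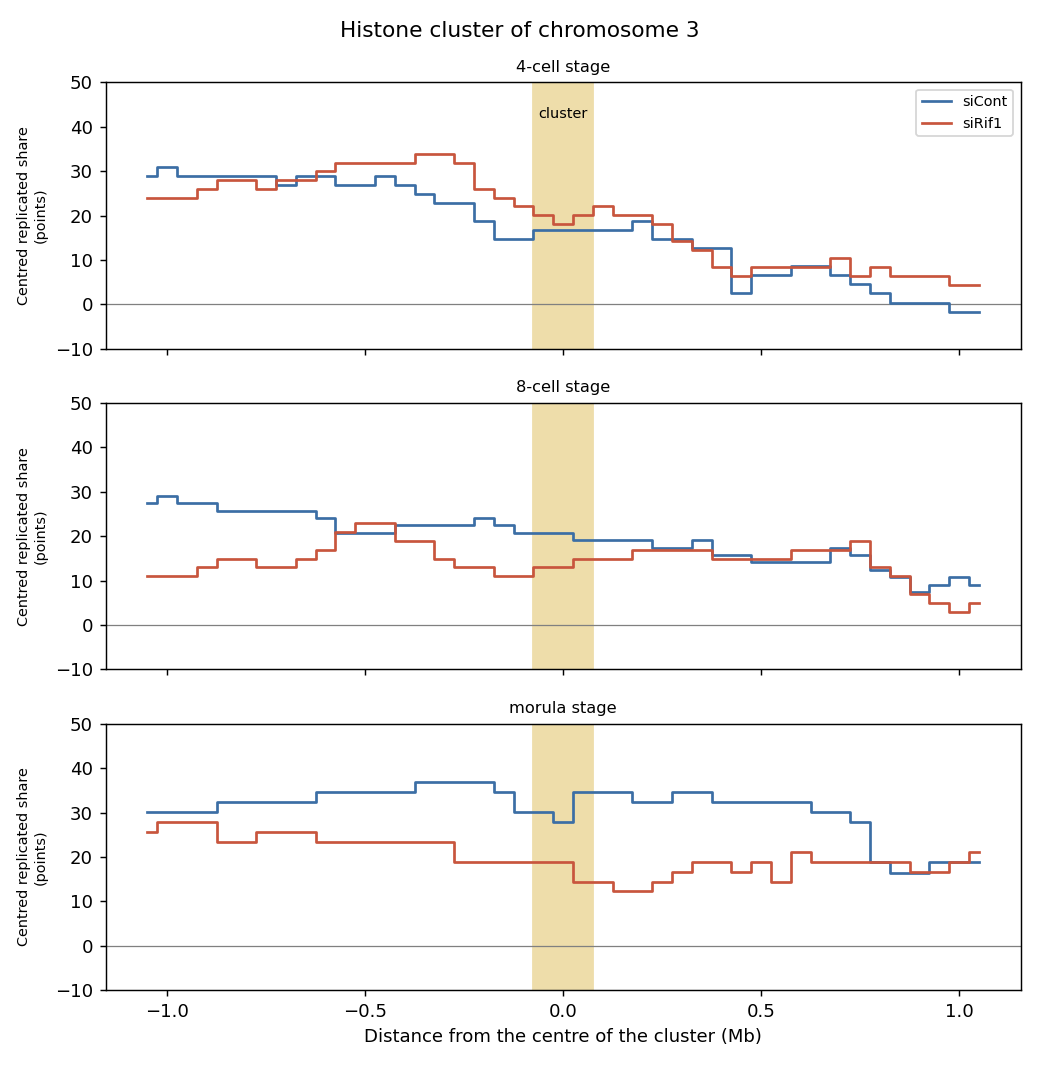
Centred replicated share in points per 50-kb bin against distance from the centre of the chromosome 3 histone cluster in Mb, for siCont (blue) and siRif1 (red) cells at 3 stages; shading marks the cluster. The cluster lies within early replicating DNA throughout, and at the morula stage the siRif1 line is below the siCont line over the cluster (means 17.4 and 30.9) and over most of its flanks.

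The linker histone genes of block B shared its pattern. H1f3 (chr13:23555032-23555807) was in the replicated state in 20 of 49 siCont and 26 of 51 siRif1 cells of the 4-cell stage, 27 of 60 and 23 of 50 of the 8-cell stage, and 27 of 44 and 19 of 45 of the morula stage. Its shifts were 6.25, 7.18 and −19.7 points in stage order, and the bin of H1f3 and H4c6, a gene of the core histone H4, had the lowest morula shift of the 12 bins with histone genes. The 4-cell value of H1f3 did not keep its sign, at −0.503 points when centred on chromosome 13 and 17.4 in paired cells. The 2 morula shares, 61.4% (exact interval 45.5 to 75.6) and 42.2% (exact interval 27.7 to 57.9), had overlapping intervals.

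H1f4 (chr13:23621777-23622558), another linker histone gene, was replicated in 21 of 49 and 28 of 51 cells, 27 of 60 and 27 of 50, and 27 of 44 and 21 of 45, in the same order. Its shifts were 8.13, 15.2 and −15.3 points. The 4-cell value was 1.38 points when centred on chromosome 13 and 17.4 in paired cells. The 8-cell shift, shared with H2bc6 in the same bin, was the highest of any histone gene bin at that stage. It was 9.78 when averaged over 5 bins around H1f4. H2bc6 is annotated over 37455 bases and was placed in this bin by its midpoint.

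H1f2 (chr13:23738807-23739531) and H1f1 (chr13:23763668-23764412) lie at the outer, earlier end of block B, where H1f1 is the last histone gene of the window. H1f2 was replicated in 25 of 49 and 32 of 51 cells of the 4-cell stage, 33 of 60 and 29 of 50 of the 8-cell stage, and 29 of 44 and 25 of 45 of the morula stage. H1f1 differed from it by 1 cell in 3 of the groups, with 26 of 49, 33 of 51 and 30 of 44 where H1f2 had 25, 32 and 29. The shifts of H1f2 were 7.81, 9.18 and −10.9 points and those of H1f1 7.73, 9.18 and −13.2. Centred on chromosome 13, the 4-cell shifts were 1.06 points for H1f2 and 0.978 for H1f1, and paired cells gave 12.2 for H1f2. These 2 linker genes replicated before 54.5 to 81.7% of the used bins, depending on the group, whereas H1f3 ranged from 33.5 to 57.6% in 5 groups and stood at 32.996% in siCont cells of the 4-cell stage.

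The order of centred shares over the groups was alike for these 4 genes at its upper end. For H1f1, H1f2, H1f3 and H1f4 siCont morula cells stood highest, followed by siRif1 cells of the 8-cell and of the 4-cell stage. The testis-type linker histone gene H1f6, which lies between H1f4 and H1f2 and was picked after its values were seen, had shifts of 7.97, 10.5 and −15.4 points. Among the 15 pairs of groups no pair had non-overlapping intervals of the uncentred shares for any of H1f1 to H1f4, and the centred shares that give the order were not tested against each other. At the inner end of the block, the H4 gene H4c8 had shifts of 6.33, 6.85 and −19.6 points.

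H1f5 (chr13:21779832-21780625), the linker histone gene of block A, stood apart from the other H1 genes at the 4-cell stage. It was replicated in 17 of 49 siCont cells (34.7%, exact interval 21.7 to 49.6) and 31 of 51 siRif1 cells (60.8%, exact interval 46.1 to 74.2). At the 8-cell stage it was replicated in 33 of 60 and 22 of 50 cells, and at the morula stage in 25 of 44 and 22 of 45. The shifts were 22.2, −4.82 and −8.52 points, and the 4-cell shift ranged from 15.4 to 30.6 over the alternatives on this scale. H1f5 replicated before 17.3% of used bins in siCont cells of the 4-cell stage and before 73.6% in siRif1 cells of that stage. siRif1 cells of the 4-cell stage thus stood highest of the 6 groups and siCont cells of that stage lowest, with overlapping intervals.

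H2ac23 (chr13:21810367-21810918), which encodes the core histone H2A, had the largest 4-cell shift of the 62 genes, shared with the other 5 genes of its bin. It was replicated in 14 of 49 siCont cells (28.6%, exact interval 16.6 to 43.3) and 30 of 51 siRif1 cells (58.8%, exact interval 44.2 to 72.4) of the 4-cell stage. It was replicated in 31 of 60 and 21 of 50 cells of the 8-cell stage and 21 of 44 and 20 of 45 of the morula stage. The 4-cell intervals did not overlap, and in a count added after seeing the data this was the case in 1 of the 17 bins of the clusters and 0.243% of all used bins at that stage. At the 8-cell and morula stages 0 of the 17 bins had non-overlapping intervals, where 5.45% and 2.53% of used bins did. These intervals are those of uncentred shares, and siRif1 cells of the 4-cell stage were also further through S phase, with a mean share over used bins of 50.5% against 46.5%. The centred shift was 26.3 points, and it ranged from 19.6 points centred on chromosome 13 to 35.8 in paired cells. At the later stages the shifts were −3.49 and −3.87 points.

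**Figure D3:**
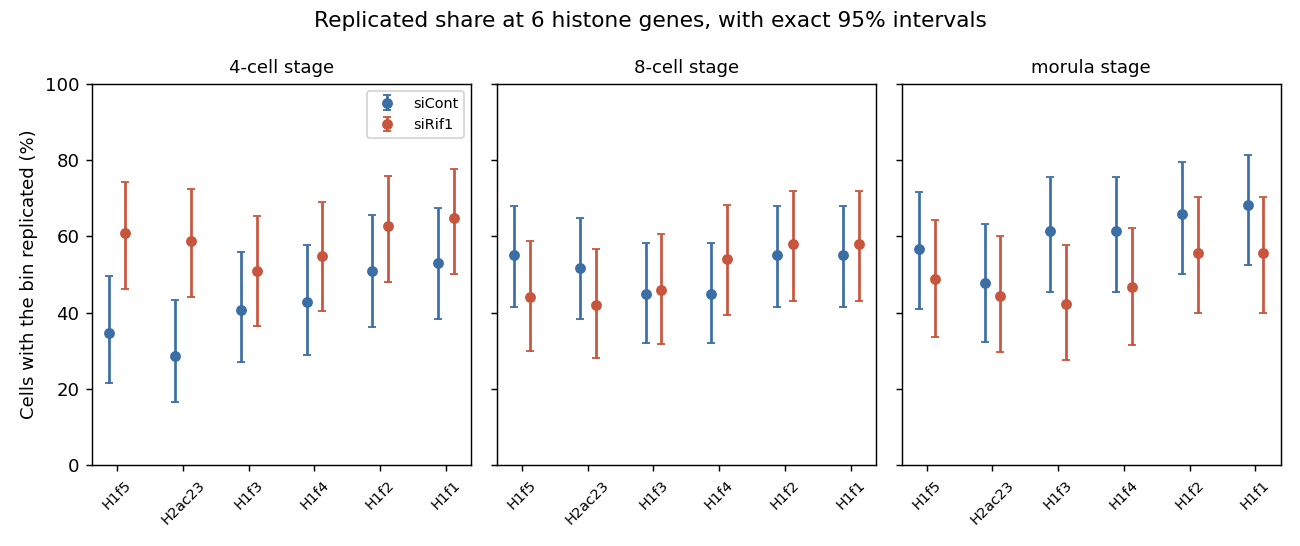
Percent of cells with the gene's bin replicated, with exact 95% intervals, for 6 histone genes in siCont (blue) and siRif1 (red) cells at 3 stages. At the 4-cell stage the intervals of H2ac23 do not overlap (28.6% and 58.8%), and at the morula stage the siCont point lies above the siRif1 point for all 6 genes, with overlapping intervals.

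Across the ends of block A the 4-cell shift was present at each gene. The H2B gene H2bc13 at its outer end had shifts of 15.9, −9.49 and −4.12 points, and its 8-cell shift was the lowest of the histone gene bins. The H2B gene H2bc11 at its inner end had shifts of 16.6, −5.49 and −3.57, the last of which, shared with H2ac12, was the least negative of the morula shifts. On chromosome 3 the H2A gene H2ac21 had shifts of 3.41, −7.82 and −11.2 points. The H2B gene H2bc18 at the other end had 1.45, −7.82 and −8.97, the first of which was the lowest 4-cell shift of the histone gene bins.

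Over all 62 histone genes the shift was above 0 in 62 at the 4-cell stage, in 29 at the 8-cell stage and in 0 at the morula stage. The corresponding shares of the 19406 genes with a used bin were 40.4%, 28.1% and 25.2%. The 62 genes lay in 12 bins of 3 regions, so these counts rest on few separate measurements. The 4-cell count also depends on the setting. Centred on chromosome 13, the bin of H1f3, which holds 9 of the genes, had a shift of −0.503 points. Among cells between 20 and 80% replicated, the chromosome 3 cluster had −0.314. Shifts of 10 points or more were seen for 23 genes at the 4-cell stage (9.81% of all genes) and 6 at the 8-cell stage (7.67%), and of −10 or less for 36 at the morula stage (41.1%). The median shift of the histone genes was 7.81, −3.49 and −11.2 points, beside −2.31, −7.49 and −8.04 for all genes. At the morula stage the share of histone genes past −10 points came from block B, with 29 of 29 genes, and from chromosome 3, with 7 of 10.

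By histone class the genes followed the block they lie in. All 23 genes of block A reached 10 points at the 4-cell stage, with a median of 22.2, whereas 0 of 29 genes in block B and 0 of 10 on chromosome 3 did. The H1 genes, 5 of which lie in block B, had median shifts of 7.89, 9.18 and −14.2 points. H3 genes had medians of 6.33, 6.85 and −12.2, and H4 genes 7.85, 1.68 and −11.1. H2A genes had medians of 7.85, −4.82 and −11.2 and H2B genes 12.01, −4.15 and −8.74. The testis histone genes H2bc1 and H2ac1, which lie just beyond block B outside the windows and were picked after their values were seen, had shifts of 3.65, 7.85 and −2.001 points.

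The position of each cell in S phase, measured as the percent of all its bins replicated, was then used to place the blocks. Among cells of the 4-cell stage between 35 and 50% replicated, block A was replicated in 0 of 10 siCont cells, which allows a share of up to 30.8% by the exact interval, and in 10 of 14 siRif1 cells (71.4%, exact interval 41.9 to 91.6). Below 35% it was in the replicated state in 3 of 19 siCont and 0 of 10 siRif1 cells, between 50 and 65% in 1 of 4 and 7 of 17, and above that in 9 of 16 and 8 of 10. The difference of the 4-cell stage was thus largest in the class from 35 to 50%, and the classes held 4 to 19 cells. Block B differed in the same direction in that class, with 3 of 10 siCont and 10 of 14 siRif1 cells and overlapping intervals. The chromosome 3 cluster had 7 of 10 and 10 of 14.

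For block B the classes of the morula stage were 1 of 7, 8 of 16, 15 of 17 and 3 of 4 siCont cells from the least to the most replicated class. The siRif1 counts were 3 of 10, 6 of 14, 7 of 12 and 5 of 9. In siCont morula cells block B thus went from replicated in few to replicated in most cells over the classes, and siRif1 cells showed the same direction over a narrower range. At the 8-cell stage block B was replicated in 0 of 12, 9 of 22, 8 of 14 and 10 of 12 siCont cells and in 4 of 17, 9 of 17, 11 of 13 and 3 of 3 siRif1 cells.

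The chromosome 3 cluster was often replicated in cells early in S phase. At the 4-cell stage it was in the replicated state in 7 of 19 siCont and 8 of 10 siRif1 cells below 35%, and at the 8-cell stage in 6 of 12 and 8 of 17. In cells between 50 and 65% replicated, it was in the replicated state in 4 of 4 siCont and 8 of 17 siRif1 cells of the 4-cell stage, 12 of 14 and 7 of 13 of the 8-cell stage, and 15 of 17 and 7 of 12 of the morula stage. Between 35 and 50% the counts were 7 of 10 and 10 of 14, 13 of 22 and 11 of 17, and 11 of 16 and 11 of 14. The siRif1 share was thus the lower one between 50 and 65% at all 3 stages. From 65% upward the siCont and siRif1 counts were 13 of 16 and 9 of 10, 11 of 12 and 2 of 3, and 4 of 4 and 9 of 9 in stage order. In that class the siRif1 share was lower only at the 8-cell stage. Between 35 and 50% the siCont and siRif1 shares lay closer, at 70 and 71.4%, 59.1 and 64.7%, and 68.8 and 78.6% in stage order. The exact intervals overlapped in each of these classes at all 3 stages, with few cells in each class.

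**Figure D4:**
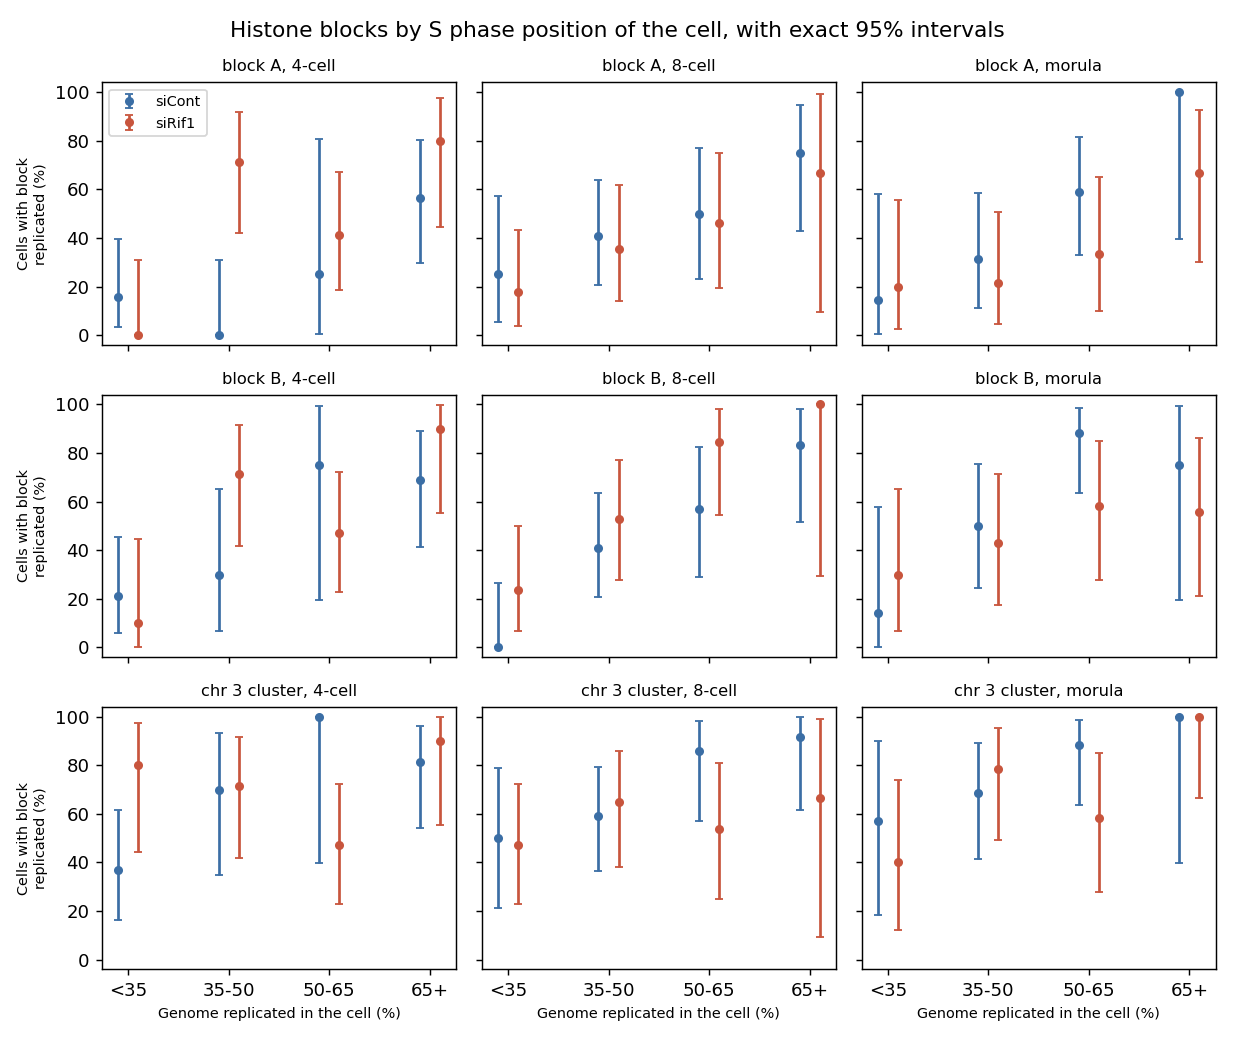
Percent of cells with more than 50% of a block replicated, with exact 95% intervals, by the percent of the genome replicated in the cell, for siCont (blue) and siRif1 (red) cells. Rows are block A, block B and the chromosome 3 cluster and columns are stages. At the 4-cell stage the class from 35 to 50% gives 0 of 10 siCont and 10 of 14 siRif1 cells in block A. In block B it gives 3 of 10 and 10 of 14.

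Within individual cells blocks A and B were often in different states although they are parts of 1 gene cluster. They were in the same state in 33 of 49 siCont and 36 of 51 siRif1 cells of the 4-cell stage, 43 of 60 and 32 of 50 of the 8-cell stage, and 25 of 44 and 23 of 45 of the morula stage. Where they differed, block B was the replicated one in 12 of the siCont cells of the 4-cell stage and block A in 4. The corresponding counts were 9 and 6 in siRif1 cells of that stage, 8 and 9 in siCont and 14 and 4 in siRif1 cells of the 8-cell stage, and 13 and 6 in siCont and 14 and 8 in siRif1 cells of the morula stage. Block B was thus the more frequent to be replicated alone in all groups except siCont cells of the 8-cell stage.

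Set against the chromosome 3 cluster, block A was seldom replicated alone. In siCont morula cells block A alone was replicated in 1 cell and the chromosome 3 cluster alone in 15 of 44, and in siRif1 morula cells in 6 and 22 of 45. At the 4-cell stage the counts were 3 and 21 in siCont and 7 and 17 in siRif1 cells, and at the 8-cell stage 8 and 22 in siCont and 6 and 17 in siRif1 cells. The chromosome 3 cluster therefore came before block A in most cells where they differed, in all 6 groups.

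Across development the control cells and the siRif1 cells changed in different ways at these loci. In siCont cells block A rose by 16.2 points from the 4-cell to the 8-cell stage and then changed by −4.54 points to the morula stage. The rise was 9.26 points when centred on chromosome 13. Its bins gained between 12.5 and 20.4 points, where 21.7% of all used bins gained 10 or more. Block B changed by 0.929 points to the 8-cell stage, with a value of −6.00 when centred on chromosome 13, and rose by 14.3 points to the morula stage. The chromosome 3 cluster changed by 3.52 and 10.7 points over the same steps, or by −5.42 and 7.32 percentile points on ranks, and 19.5% of used bins gained 10 points or more from the 8-cell to the morula stage.

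In siRif1 cells block A instead changed by −10.2 points from the 4-cell to the 8-cell stage and by −4.29 to the morula stage. Block B changed by 3.24 and −11.1 points and the chromosome 3 cluster by −5.83 and 3.79. Between the 4-cell and the morula stage all 3 regions were thus higher at the later stage in siCont cells. The siCont changes were 11.7, 15.2 and 14.2 points, in the order block A, block B and chromosome 3. In siRif1 cells blocks A and B were lower at the later stage, by −14.5 and −7.86 points. The chromosome 3 cluster changed by −2.05 points in siRif1 cells, with bins from −5.66 to 0.743. By the rank of its mean it fell in siRif1 cells, from before 90.4% of used bins at the 4-cell stage to before 82.0% at the morula stage. The siCont positions by this rank were 85.7 and 89.9%. The siRif1 changes were not recomputed under the alternative settings. Gains of 10 points or more over this span were seen in 34.8% of all used bins in siCont cells. The siCont value of block A was 4.94 and that of block B 8.50 when centred on chromosome 13, and that of the chromosome 3 cluster was only 1.91 percentile points on ranks. The SD of shares over used bins rose from 13.7 to 25.8 points over the same span in siCont cells. The difference between the 2 treatments in these changes was not tested.

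**Figure D5:**
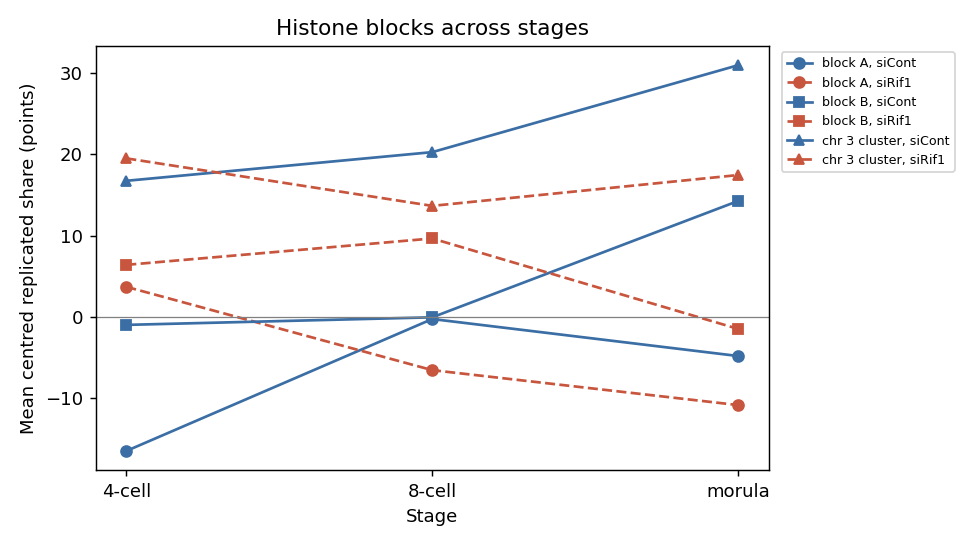
Mean centred replicated share in points of block A (circles), block B (squares) and the chromosome 3 cluster (triangles) at 3 stages, in siCont (blue, solid) and siRif1 (red, dashed) cells, each point being 1 group. From the 4-cell to the morula stage the siCont points rise for all 3 regions (block A from −16.4 to −4.79). On percentile ranks the chromosome 3 cluster rises by only 1.91 in siCont cells. The siRif1 points of blocks A and B end lower than they began (block A from 3.71 to −10.8), and that of the chromosome 3 cluster goes from 19.5 to 17.4. By rank the siRif1 mean of that cluster falls from before 90.4% to before 82.0% of used bins.

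Among 24 measured genes that act on histone mRNA or histone promoters, 0 reached 10 points at the 4-cell stage, where 9.81% of all genes did. Of these factors 19 had shifts below 0 at the 4-cell stage and 20 at each of the 8-cell and morula stages, where 59.6%, 71.9% and 74.8% of all genes did, with medians of −2.19, −11.99 and −7.39 points. Shifts of −10 or less were seen in 6, 13 and 9 of the 24, where 20.7%, 42.9% and 41.1% of all genes had them. At the 4-cell stage the largest were −22.2 for both Gon4l, a nuclear factor associated with histone locus bodies, and Upf1, a helicase of mRNA decay. At the 8-cell stage they were −25.9 for Zfp473, a zinc finger protein of the histone pre-mRNA processing machinery, and −23.5 for E2f4, a cell cycle transcription factor. At the morula stage they were −22.2 for the transcription factor gene Yy1 and −17.9 for Gon4l.

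Histone chaperone genes, whose products carry and deposit histones, gave 10, 16 and 14 shifts below 0 among 18 measured members of 20, where 59.6%, 71.9% and 74.8% of all genes had them, with medians of −1.69, −10.8 and −11.1 points. Shifts of −10 or less were seen in 4, 12 and 9 of them, beside 20.7%, 42.9% and 41.1% of all genes, so the counts of the 4-cell and morula stages lay near those shares. The largest at the 4-cell stage were −18.4 for Asf1b, a chaperone of H3 and H4, and −16.5 for Rbbp4, a histone-binding subunit of several complexes. At the 8-cell stage they were −31.8 for Ubn1, a subunit of the HIRA complex, and −28.2 for Chaf1a, and at the morula stage −28.8 for Supt16, a subunit of FACT, and −26.1 for Chaf1b. Chaf1a and Chaf1b encode subunits of CAF-1, which deposits histones on newly copied DNA.

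Histone genes outside the windows were mostly those of replacement variants. Of 17 measured genes of 20 in the list, in 15 bins, 11, 14 and 16 had shifts below 0, with medians of −1.67, −7.66 and −17.2 points, beside 59.6%, 71.9% and 74.8% of all genes. Shifts of −10 or less were seen in 4, 7 and 10 of them, beside 20.7%, 42.9% and 41.1% of all genes. The 4-cell counts lay near those shares. Macroh2a1, which encodes a large H2A variant, moved the other way at the 4-cell stage with 18.3 points, in the replicated state in 17 of 49 siCont and 29 of 51 siRif1 cells. H3f3b, a gene of the replacement variant of H3, had −17.2 points at the 4-cell stage and −36.9 at the 8-cell stage. Cenpa, the centromeric H3 variant, had −29.8 at the 8-cell stage. At the morula stage H2az1, an H2A variant gene, had −31.3 points and the linker variant gene H1f10 −22.3.

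The genes elsewhere in the genome whose centred shares over the 6 groups lay nearest to the mean of the main cluster were Naa11, Sh2d4b, Rfpl4b, Adarb2 and E130311K13Rik, at Euclidean distances of 4.82 to 8.02 points. The median distance of all genes was 45.7 points. For the chromosome 3 cluster they were Pnkd, Ucma, Fcgr4, Slc35a1 and Brk1, at 4.81 to 5.81 points, beside a median of 29.7. This likeness is over 6 values, each of 1 group. The mean of the main cluster pools blocks A and B, whose 8-cell shifts had opposite signs (−6.28 and 9.68 points). The genes nearest to that mean therefore need not resemble either block.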

How the data were processed

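Amplified DNA of individual blastomeres was sequenced, per the labels' protocols. In the tables the authors deposited, 1 per group, cells are columns, bins of 50 kb are rows and the entries are 0, 1 or NA. GRCm38, R 4.2.3, bedtools, Picard, SAMtools and Bowtie2 2.5.1 appear in the submitters' processing notes. The step from reads to states is not stated in these sources, and read depth per cell is unknown. Of 416 labelled cells, 299 had a column, and all were used.

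A state of 1 was read as replicated because bins with a gene midpoint had the higher mean share of 1 in all 6 groups (52.2 against 44.2% in siCont cells of the 4-cell stage). Of 49264 autosomal bins, 46015 with at least 10 measured cells in every group were used. Shares, centred shares, shifts and exact Clopper-Pearson intervals were computed with Python 3.11.15, numpy 2.4.6, pandas 2.3.3 and scipy 1.17.1, and plotted with matplotlib 3.10.9. The calculation was checked on simulated states with a planted shift, drawn independently for each bin and cell. This checks the arithmetic only, because the real states run in long stretches. Genes were placed by midpoint with RefSeq GRCm38.p6, which gave a used bin to 19406 of 20661 autosomal protein-coding genes.

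The members, gene lists and rules were chosen with earlier results of these data known. Named genes were the 6 listed members, the histone genes at the block ends, those with the highest and lowest shift per stage, the 2 members of each of the 3 other lists with the largest absolute shift per stage, the 5 nearest genes by likeness, and genes in the flank bins with the highest and lowest control share. Alternatives were percentile ranks, cells 20 to 80% replicated, cells paired within 5 points, a minimum of 20 cells, centring on the chromosome, bins with a histone gene only, 0.5 Mb flanks, 5-bin means, an 80% majority rule and a 20-point size.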

Additional observations from a re-analysis of the deposited data

Results flagged for a closer look

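In several places the siRif1 minus siCont shift had opposite signs at 2 stages. None of these differences between stages was tested, because each group is 1 sample. For block A the 4-cell shift exceeded the 8-cell shift by 26.4 points. For block B the 8-cell shift exceeded the morula shift by 25.4 points.

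Genes within the blocks showed the same contrast and are not separate measurements. In block A the 4-cell shift exceeded the morula shift by 30.7 points for H1f5 and by 30.2 for H2ac23. In block B the 8-cell shift exceeded the morula shift by 30.5 points for H1f4, 26.9 for H1f3, 22.4 for H1f1 and 20.1 for H1f2.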

How the results depend on the processing

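On percentile ranks, a scale of its own, the 4-cell shift of block A was 46.004 percentile points, its excess over the flanks 40.4, the distance of block A from its flanks in siCont 4-cell cells −22.6, and its siCont change from the 4-cell to the 8-cell stage 34.1. With 20 points as the size of a large shift, the shares of bins past it downward and upward were 1.24% and 1.36% at the 4-cell stage, 6.43% and 3.95% at the 8-cell stage, and 5.6% and 6.41% at the morula stage. Of 54 alternative values of the block shifts 53 kept their sign, of 162 for blocks against flanks 148 did, of 45 for siCont stage changes 42 did, and of 108 for the listed genes 107 did. The sign changes against flanks all concerned the chromosome 3 cluster. These counts include alternatives that left values unchanged, so they overstate agreement. The minimum of 20 cells left all of these values unchanged, and centring on the chromosome cancels in a block minus its flanks. Every bin of block B held a histone gene, so that choice left its shifts unchanged. Pairing by embryo was not possible because cell numbers only name cells, and no result comes from a test. The paired cells above were matched between treatments only by how much of the genome they had replicated. Group sizes of 44 to 60 cells limit precision, and leaving out a replicate could not be done with 1 sample per group.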

Other observations

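The genes in the flanks put the slopes around the clusters into context. In siCont cells the highest flank bin beside block A held the olfactory receptor genes Olfr263 and Olfr1368 at the 4-cell stage (59.2% of cells), Zkscan8 and Olfr1366 at the 8-cell stage (71.7%), and Pgbd1 and Zscan26 at the morula stage (72.7%). Zkscan8 and Zscan26 encode zinc finger proteins. The lowest flank bins lay in the Vmn1r gap, with 12.2% at Vmn1r209 and Vmn1r210 at the 4-cell stage, and 6.82% at Vmn1r201 and 9.09% at Vmn1r202 and Vmn1r203 at the morula stage. Beside block B the highest morula bin held Armh2 (79.5%). Beside the chromosome 3 cluster the highest bins held Prune1 and Mindy1 at the 4-cell stage (77.6%) and at the 8-cell stage (78.3%), and Car14 and Anp32e at the morula stage (86.4%), and the lowest held Bcl9 (44.9%) and Acp6 (56.7%) at the first 2 stages.

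A further description, chosen after seeing the data, followed the replicated stretch inward from the outer edge of each block in cells whose gap core was not replicated. At the 4-cell stage the bin just beyond the outer edge of block A was replicated in 19 siCont and 28 siRif1 cells. The stretch ended at the edge in 0 and 3 of these cells. That outside bin was not replicated in 23 siCont and 14 siRif1 cells. Among cells in which it was replicated, the stretch reached through the whole block in 9 of 19 siCont cells (47.4%, exact interval 24.4 to 71.1) and 13 of 28 siRif1 cells (46.4%, exact interval 27.5 to 66.1). The median stretch, counted from the edge inward, was 150 kb and 325 kb. For block B the cells were likewise those with the bin just beyond its outer edge replicated. At the morula stage the stretch reached through the block in 17 of 24 siCont cells (70.8%, exact interval 48.9 to 87.4) and 10 of 20 siRif1 cells (50%, exact interval 27.2 to 72.8). It ended at the edge in 0 and 1 of these cells, and the medians were 500 and 275 kb. The intervals overlap for both blocks.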
